A study of Mus musculus with 16 samples.

Results

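A CpG that was almost fully methylated in a parental culture of immortalised mouse embryonic fibroblasts (MEFs) was rarely found at a low methylation level in a clone grown from a single cell of that culture. Such CpGs were taken from the 1203687 CpGs measured in all 16 libraries by 2 conditions, and so were selected on their measured levels. The parental level, the percentage of reads called methylated, was 90% or more on 20 or more reads, and at least 1 clonal line of the same family was under 40%. In MEF-1, 320588 CpGs met the parental condition, which is called eligible below, and 3586 of them lost methylation in this sense. In MEF-2, 278847 CpGs were eligible and 3477 lost methylation. With 49 CpGs in both sets, 7014 CpGs were chosen in all. The levels that chose them (parental, and clonal in the same family) are given as a description, and members were not tested against other CpGs on them. The tests of loss rates below count the same levels, and compare them between classes of CpG. Sequence and place took no part in the choice. State in the other family took no part in the choice within a family, but was itself set by the same rule there.

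DNA methylation was measured by target capture bisulfite sequencing (tcBS-seq), in which captured DNA is treated with bisulfite so that an unmethylated cytosine is read as thymine and a methylated one stays cytosine. MEF-1 (male) and MEF-2 (female) came from sibling C57BL/6J embryos at E13.5 and were immortalised by serial passage through crisis. Each parental culture was sequenced once, and each gave 7 clonal lines that were expanded from single sorted cells, so a parental line and its clonal lines form a family with no treatment or engineered allele. Each clonal line is 1 clone and was sequenced once, and chromosomes that the authors judged aneuploid or sex-linked had been removed, which left 16 chromosomes. Median coverage of a CpG was 26 to 39 reads in the 16 libraries. The fibroblast label was set against promoter methylation: the median promoter level in the parental lines was 5.54% (MEF-1) and 2.13% (MEF-2) over 11 fibroblast identity genes, against 66.7% and 60.5% over 9 endothelial and 62.8% and 72.3% over 9 blood cell markers, while 17 neural markers (13.4% and 9.61%) and 15 epithelial markers (18.6% and 22.2%) were low as well.

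Methylation of CpGs is copied at each cell division, when UHRF1 recognises the hemimethylated site behind the replication fork and recruits the maintenance methyltransferase DNMT1. Where copying fails, the mark is diluted in the daughter cells unless it is restored by a de novo methyltransferase. A diploid cell carries each autosomal CpG on a maternal and a paternal allele. A clone from a single cell can thus have a low, an intermediate or a high level. This depends on the state of the alleles in the founder cell and on changes during expansion. Loss of methylation over many divisions is known in particular from late-replicating, CpG-poor DNA and from CpGs with A or T on both sides.

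The sequences show where losses were seen. They were read from the GRCm38 (mm10) plus strand, and capitals mark the CpGs that lost methylation in the named family (in either family for the last group). The first pair holds the stretches with the most adjacent losses in each family, by number of CpGs.
MEF-1, Gpr12 coding exon, chr5:146583231-146583332: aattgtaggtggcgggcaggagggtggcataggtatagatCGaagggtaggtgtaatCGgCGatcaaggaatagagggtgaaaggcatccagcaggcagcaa
MEF-2, Ccdc113 intron, chr8:95548351-95548604: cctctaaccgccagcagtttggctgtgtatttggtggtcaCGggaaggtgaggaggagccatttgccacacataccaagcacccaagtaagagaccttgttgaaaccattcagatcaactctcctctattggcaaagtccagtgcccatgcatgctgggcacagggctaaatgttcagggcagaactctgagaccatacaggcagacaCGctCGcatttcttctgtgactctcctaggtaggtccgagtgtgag

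The next windows lie in promoters with more than 1 loss, and were chosen because they hold some of the deepest losses or the clearest contrast between lines. The members of the Bcar3 window also lie in an intron and those of the Art3 window in a coding exon.
MEF-1, F2 promoter, chr2:91636647-91636765: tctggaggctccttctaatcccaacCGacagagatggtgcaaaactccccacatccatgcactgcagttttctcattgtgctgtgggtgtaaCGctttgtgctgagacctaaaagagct
MEF-1, Bcar3 promoter, chr3:122510270-122510430: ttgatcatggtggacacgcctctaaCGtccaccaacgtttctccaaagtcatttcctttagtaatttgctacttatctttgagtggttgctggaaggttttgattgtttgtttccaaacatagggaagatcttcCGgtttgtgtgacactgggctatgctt
MEF-2, Slc38a3 promoter, chr9:107669760-107669943: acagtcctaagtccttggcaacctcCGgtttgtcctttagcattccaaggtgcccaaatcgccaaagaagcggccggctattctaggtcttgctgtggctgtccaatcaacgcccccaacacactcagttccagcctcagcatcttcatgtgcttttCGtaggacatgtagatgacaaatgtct
MEF-2, Art3 promoter, chr5:92392478-92392536: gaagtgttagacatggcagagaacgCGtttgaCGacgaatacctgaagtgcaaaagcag

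The windows after these are centred on CpGs that were under 40% in the most clonal lines of a family.
MEF-1, Hspb8 intron, chr5:116421590-116421671: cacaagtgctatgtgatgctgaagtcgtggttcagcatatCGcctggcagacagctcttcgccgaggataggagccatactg
MEF-1, Sox13 intron, chr1:133422536-133422617: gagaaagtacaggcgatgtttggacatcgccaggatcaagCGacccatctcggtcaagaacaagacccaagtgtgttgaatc
MEF-2, Dbx2 intron, chr15:95641354-95641435: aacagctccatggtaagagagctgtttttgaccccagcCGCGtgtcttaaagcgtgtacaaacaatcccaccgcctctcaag
MEF-2, Sptbn4 intron, chr7:27366280-27366361: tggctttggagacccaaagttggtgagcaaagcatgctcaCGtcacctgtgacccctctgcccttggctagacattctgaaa

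The last windows are centred on CpGs that lost methylation in both families.
Ahsg non-coding exon, chr16:22892479-22892560: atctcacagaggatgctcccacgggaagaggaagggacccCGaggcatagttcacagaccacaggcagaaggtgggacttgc
Intergenic, chr10:9053729-9053810: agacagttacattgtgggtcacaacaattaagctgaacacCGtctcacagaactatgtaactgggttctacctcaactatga

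Loss in a single clonal line was the rule. Of the 3586 MEF-1 CpGs, 3199 (89.2%) were under 40% in 1 line, 319 in 2, 60 in 3, 7 in 4 and 1 in 5 lines. Of the 3477 MEF-2 CpGs, 3130 (90.02%) were under 40% in 1 line, 295 in 2, 42 in 3, 9 in 4 and 1 in 6 lines. No CpG was under 40% in all 7 lines of a family.

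The lines of MEF-1 were unequal. Lines 2, 3, 6 and 7 had 1084, 867, 875 and 941 losses, whereas lines 1, 4 and 5 had 137, 76 and 70. Per 1000 eligible CpGs, the loss rate of a MEF-1 line was 0.218 at the lowest and 3.38 at the highest (mean 1.80 ± 1.43 SD, n = 7). Without lines 1, 4 and 5 the mean was 2.94 ± 0.313 (SD, n = 4). The 7 MEF-2 lines had 630, 490, 481, 527, 539, 616 and 605 losses, or 1.72 to 2.26 per 1000 (mean 1.99 ± 0.220 SD, n = 7). The rates of the 4 MEF-1 lines with many losses lay above all MEF-2 lines, and those of the other 3 lay below all of them. No test was made of these rates because they are what chose the CpGs. Median coverage of eligible CpGs was 29 to 34 reads in lines 1, 4 and 5 and 30 to 40 reads in the other MEF-1 lines. The plot of losses per line shows the split.

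**Figure D1:**
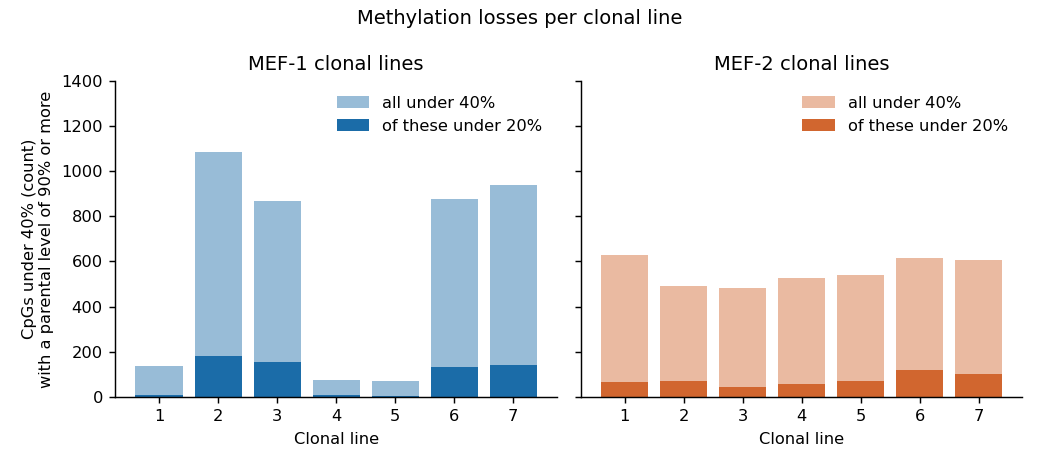
Number of CpGs with a parental level of 90% or more that were under 40% in each clonal line (pale bars) and the part of them under 20% (dark bars), for the 7 MEF-1 and the 7 MEF-2 lines. MEF-1 lines 1, 4 and 5 hold 70 to 137 such CpGs and the other MEF-1 lines 867 to 1084, while MEF-2 lines hold 481 to 630.

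Some pairs of lines shared more losses than others. MEF-1 lines 3 and 7 had 136 losses in common, which is 15.7% of the losses of line 3 and 14.5% of those of line 7. Lines 2 and 3 shared 120 and lines 2 and 7 shared 108, whereas line 6 shared 34 to 42 with each of these. In MEF-2 the largest overlap was 50 CpGs, between lines 2 and 7 (10.2% and 8.26% of their losses), and the smallest was 12, between lines 4 and 6. The few losses of MEF-1 lines 4 and 5 had 10 CpGs in common (13.2% and 14.3%).

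Most losses were partial. Over the 7 lines there were 4050 losing calls in MEF-1 (1 call is 1 CpG in 1 line) out of 2244116 eligible calls, with a median level of 33.3%. Of them, 2688 were at 30 to 40%, 733 at 20 to 30%, 307 at 10 to 20% and 322 under 10%, with 83 at exactly 0%. The 3888 losing calls of MEF-2, out of 1951929, had the same median level, with 2679 at 30 to 40%, 682 at 20 to 30%, 264 at 10 to 20% and 263 under 10%, of which 70 were at 0%. Calls thus became fewer towards lower levels down to 20% and then stayed about level.

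The 40% limit cut through a continuous range. In MEF-1, 675 calls lay from 38 to under 40% and 1184 from 40 to 42%, and in MEF-2 these numbers were 706 and 1220. Calls at 40 to 50% numbered 6758 in MEF-1 and 6812 in MEF-2, more than all losing calls. At the parental limit, 565 MEF-1 and 658 MEF-2 members had a parental level of 90 to under 91%, and 342 and 439 CpGs with a line under 40% were left out at a parental level of 89 to under 90%. Read depth also limits single calls. The upper 95% Wilson limit of the level was under 50% for 1825 of the MEF-1 calls (45.1%) and 1544 of the MEF-2 calls (39.7%). Such calls were found at 1672 MEF-1 and 1452 MEF-2 members. The calls were chosen as low on the same reads, so these limits describe read depth and do not set a call apart from 50%. Intervals cover counting error only. Calls on fewer than 20 reads made up 18.99% of losing calls against 13.1% of eligible calls in MEF-1, and 20.4% against 12.1% in MEF-2.

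Members were not the best methylated of the eligible CpGs in the parental line. The median parental level was 94.3% in MEF-1 members against 97.8% over all eligible CpGs, and 93.3% against 97.2% in MEF-2. No unmethylated read was seen in the parent at 14.2% of MEF-1 members and 39.4% of eligible CpGs, and at 9.89% and 31.7% in MEF-2. The share of eligible CpGs that were members fell from 45.1 per 1000 at a parental level of 90 to 92% to 2.25 per 1000 at 98 to under 100% in MEF-1, and from 46.3 to 1.89 per 1000 in MEF-2. At 100% it was higher again, 4.02 and 3.89 per 1000. A level of 98 to under 100% can only be measured at a CpG with many parental reads. A level of 100% is possible at any depth that the parental condition allows. This rise therefore also compares CpGs of unlike read depth, and the part of depth in it was not tested. The parental level took part in the choice, so the values above are descriptions.

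Members were less methylated than other eligible CpGs also in the clonal lines in which they were not under 40%. The mean level of those calls was 86.9% for MEF-1 members and 86.5% for MEF-2 members, with 63.1% and 57.7% of them at 90% or more and 11.4% and 9.43% at 40 to 60%. Over all eligible calls the mean level was 96.8% in MEF-1 lines and 95.9% in MEF-2 lines, and 93.7% and 91.2% of calls were at 90% or more. All lines without the loss were at 90% or more for 611 MEF-1 members (17.0%) and 482 MEF-2 members (13.9%). The coverage of a losing call, relative to the other lines of the family, had a median of 0.987 (MEF-1) and 0.986 (MEF-2). It was under 0.75 for 14.9% of losing calls against 12.1% of eligible calls in MEF-1, and for 14.0% against 10.8% in MEF-2.

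Near-complete losses, under 10% in a line, occurred at 295 MEF-1 members (8.23%) and 258 MEF-2 members (7.42%). The calls behind them had a median of 32 and 31 reads. At 211 and 198 of these CpGs only 1 line was under 40%, and at 38 and 22 all other lines were at 90% or more. Their median parental level was 93.6% and 92.9%. The other family's parental line was at 90% or more at 10.8% of the MEF-1 CpGs and 48.8% of the MEF-2 CpGs of this kind.

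Members rarely stood side by side on the chromosome. A run was defined as 3 or more CpGs that follow each other in the table, at most 200 bp apart, each a member and each under 40% in the same line. Each family had a single run, of 3 CpGs, which held 0.0837% of MEF-1 members and 0.0863% of MEF-2 members. With 2 adjacent CpGs allowed, MEF-1 had 27 pairs (median span 10 bp) and MEF-2 had 48 (median span 6.5 bp), and the shares of members in runs were 1.59% and 2.85%. The count looks only at eligible CpGs. Where neighbours of any parental level were considered, 1278 of the 3374 MEF-1 members with a measured CpG within 200 bp had an adjacent CpG under 40% in the same line, and 1363 of 3280 in MEF-2. Much of this was shared with lines that kept the methylation. Counted per line, 37.4% of the losing calls of MEF-1 members had such a neighbour in the losing line, against 27.5% of the calls of the same members at 40% or more and 12.7% of calls at all eligible CpGs. In MEF-2 these shares were 40.998%, 29.6% and 11.3%. In the parental line itself, where the members are at 90% or more by definition, 24.2% of MEF-1 members and 23.4% of MEF-2 members had an adjacent CpG under 40%. Both runs disappeared when the limit was lowered to 20% or the parental minimum raised to 95%, the MEF-1 run without line 6 and the MEF-2 run without line 2.

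The MEF-1 run lay in the coding exon of Gpr12, which encodes an orphan G protein-coupled receptor. Its 3 CpGs (chr5, positions 146583271, 146583288 and 146583291) had parental levels of 92.9%, 96.2% and 96.2%. In line 6 they were at 39.0% (95% Wilson interval 27.6 to 51.7, 59 reads), 36.4% (24.9 to 49.6, 55 reads) and 34.5% (23.4 to 47.7, 55 reads). The other 6 lines were at 90.6 to 100% at all of these CpGs, so line 6 did not overlap with them. The measured CpG before the run (146583243) was at 81.4% in the parent and 75.0% in line 6, and the one after it (146583358) was at 11.6% in the parent and 2.44% in line 6.

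The MEF-2 run lay in an intron of Ccdc113, a gene for a coiled-coil protein of cilia. Its CpGs (chr8, positions 95548391, 95548559 and 95548563) had parental levels of 93.1%, 97.6% and 92.9%. In line 2 they were at 35.5% (95% Wilson interval 21.1 to 53.1), 32.4% (19.13 to 49.2) and 35.3% (21.5 to 52.1). Line 7 was at 54.5%, 58.3% and 47.9%, between line 2 and the highest lines. At the first CpG, line 4 was at 44.4%, line 3 at 61.8% and line 1 at 72.7%. Only lines 5 and 6 were at 90.9% or more there. The measured CpG before the run kept 95.7% in line 2. The one after it was at 57.9% in the parent, 8.70% in line 2 and 2.5 to 51.9% in the other lines, lowest in line 7.

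Eligible CpGs close to a loss were lower than usual in the losing line itself, and this faded within a short distance. At 1 to 20 bp from a MEF-1 loss, eligible CpGs had a mean level of 89.5% in the losing line (1086 pairs of a losing call and a neighbour) against 95.2% in the lines without the loss. At 51 to 100 bp these values were 95.1% and 96.0%, and at more than 500 and up to 1000 bp 96.0% and 96.6%. In MEF-2 the mean level at 1 to 20 bp was 84.6% in the losing line (1064 pairs) and 92.8% in the other lines, and at 51 to 100 bp 93.1% and 93.6%. The share of neighbours that were under 40% in the same line fell from 4.42% at 1 to 20 bp to 0.261% at more than 500 and up to 1000 bp in MEF-1, and from 8.08% to 0.468% in MEF-2, beside 0.180% and 0.199% of all eligible calls. These values describe the neighbourhood and were not tested, since neighbours share reads.

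**Figure D2:**
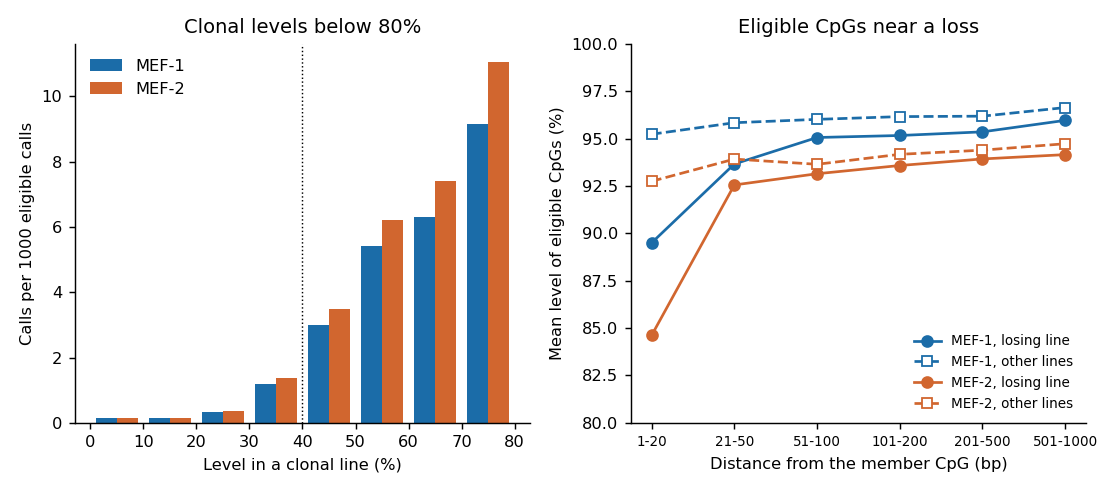
Left, calls per 1000 eligible calls in 10-point classes of the clonal level under 80%, with the 40% limit dotted. Right, mean level of eligible CpGs by distance from a member CpG, in the line with the loss (filled) and in the other lines of the family (open), on an axis from 80 to 100%. The losing lines start at 89.5% (MEF-1) and 84.6% (MEF-2) within 20 bp and approach the other lines further out.

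The CpGs next to a member were less methylated in the parent as well. The closest measured CpG within 200 bp had a mean parental level of 74.1% at MEF-1 members and 86.6% at eligible CpGs, and 73.8% against 87.0% in MEF-2. It was itself eligible at 45.8% of MEF-1 members against 70.5% of eligible CpGs, and at 39.9% against 68.1% in MEF-2. It had a parental level under 60% at 28.6% and 26.3% of members, against 12.7% and 10.4% of eligible CpGs. Where this neighbour was eligible, 80.7% of the MEF-1 and 68.2% of the MEF-2 losing calls had it at 90% or more in the losing line, and 2.66% and 5.89% had it under 40%.

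CpG-poor sequence lost methylation more often than CpG-dense sequence. The number of other CpGs within 100 bp was counted in the reference, and loss rates of each line were compared between eligible CpGs with 0 to 2 and with 6 or more. This class played no part in the choice of members. In MEF-1 lines the rate was 2.21 ± 1.73 per 1000 at CpG-poor and 1.21 ± 0.919 per 1000 at CpG-dense sites (mean ± SD, n = 7), a gap of 1.00 (lowest 0.0434, median 1.35, highest 1.85) that was above 0 in 7 of 7 lines (exact sign-flip test, two-sided, p = 0.0156, adjusted p = 0.0208 over 8 tests). In MEF-2 lines the rates were 2.34 ± 0.243 and 1.48 ± 0.277 per 1000, with a gap of 0.854 (lowest 0.438, median 0.844, highest 1.20) that was above 0 in 7 of 7 lines (exact sign-flip test, p = 0.0156, adjusted p = 0.0208). The smallest p that 7 lines allow is 0.0156. With losses limited to levels under 20%, the MEF-1 gap was 0.190 and did not pass (exact sign-flip test, p = 0.0938). Over finer classes the share of eligible CpGs that were members was 16.2 per 1000 with no other CpG, 13.1 with 1 to 2, 10.9 with 3 to 5, 8.40 with 6 to 9 and 5.32 with 10 or more in MEF-1. In MEF-2 it was 16.5, 14.1, 12.3, 10.3 and 7.43 per 1000 in the same order.

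The bases beside the CpG went with the loss rate too. At CpGs with A or T on both sides, MEF-1 lines lost 2.48 ± 2.01 per 1000, and at CpGs with C or G on both sides 1.23 ± 0.944 (mean ± SD, n = 7). The gap of 1.26 was above 0 in 7 of 7 lines (exact sign-flip test, p = 0.0156, adjusted p = 0.0208). MEF-2 lines lost 2.29 ± 0.320 and 1.71 ± 0.202 per 1000, and the gap of 0.571 was above 0 in 7 of 7 lines (exact sign-flip test, p = 0.0156, adjusted p = 0.0208). Among CpGs with 0 to 2 other CpGs within 100 bp, the MEF-2 gap was 0.416 and no longer passed (exact sign-flip test, p = 0.0781). With losses limited to levels under 20%, neither flank gap passed (0.304 in MEF-1, exact sign-flip test, p = 0.0938, and 0.0168 in MEF-2, p = 0.516). CpGs flanked by A or T made up 27.2% of MEF-1 members and 19.6% of eligible CpGs, and 21.6% and 18.99% in MEF-2.

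Losses were more frequent outside protein-coding genes. Genic CpGs lay in a transcript of a protein-coding gene or in the 1000 bp before its start. MEF-1 lines lost 2.27 ± 1.81 per 1000 intergenic and 1.57 ± 1.24 per 1000 genic CpGs (mean ± SD, n = 7), with a gap of 0.694 that was above 0 in 6 of 7 lines (exact sign-flip test, p = 0.0312, adjusted p = 0.0312). Without any 1 of lines 1, 2, 3, 5, 6 or 7 the test gave p = 0.0625 (exact sign-flip test), with gaps of 0.593 to 0.799. That is the smallest p that 6 lines allow when 1 gap is below 0. It therefore does not show that the gap rests on single lines. At a parental level of 95% or more the gap was 0.426 (exact sign-flip test, p = 0.0625). MEF-2 lines lost 2.75 ± 0.390 and 1.64 ± 0.169 per 1000, with a gap of 1.11 in the same direction in 7 of 7 lines (exact sign-flip test, p = 0.0156, adjusted p = 0.0208). Per eligible CpG, coding exons had the fewest members of these classes, 276 of 33658 in MEF-1 and 235 of 30433 in MEF-2. Introns had 10.1 and 10.7, promoters 11.3 and 12.4, and intergenic CpGs 14.0 and 17.1 members per 1000. Repeats marked in the reference held 251 MEF-1 and 226 MEF-2 members, 14.6 and 15.2 per 1000. On single chromosomes the share ran from 8.85 (chromosome 10) to 14.1 per 1000 (chromosome 6) in MEF-1 and from 9.67 (chromosome 16) to 15.9 per 1000 (chromosome 9) in MEF-2.

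Parental levels differed slightly between these classes. The pooled parental level of eligible MEF-1 CpGs was 96.99% at CpG-poor and 97.4% at CpG-dense sites, 96.8% with A or T and 97.5% with C or G on both sides, and 96.9% outside and 97.3% inside genes. In MEF-2 the corresponding values were 96.5% and 96.96%, 96.3% and 97.002%, and 96.4% and 96.8%. The class with the higher loss rate had the lower parental level each time. With eligibility limited to a parental level of 95% or more, all 6 gaps kept their direction and were smaller. The density gap was then 0.588 per 1000 in MEF-1 (exact sign-flip test, p = 0.0312) and 0.431 in MEF-2 (exact sign-flip test, p = 0.0156). The flank gaps were 0.593 and 0.280 (exact sign-flip test, p = 0.0156 in both). The genic gap was 0.426 in MEF-1, which no longer passed (exact sign-flip test, p = 0.0625), and 0.522 in MEF-2 (exact sign-flip test, p = 0.0156).

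**Figure D3:**
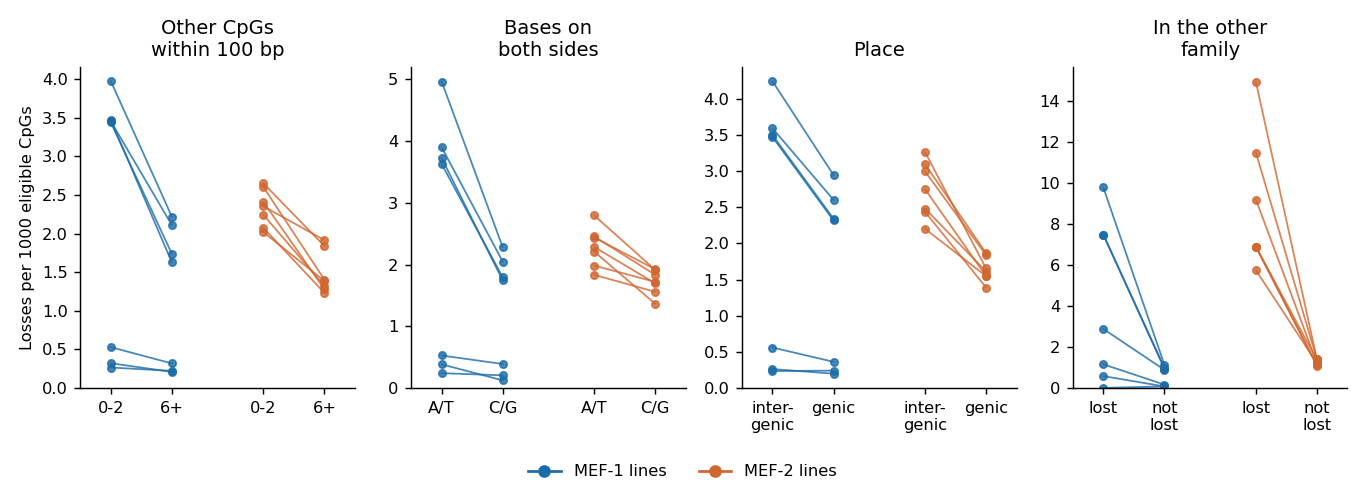
Losses per 1000 eligible CpGs in each clonal line, joined between classes: 0 to 2 against 6 or more other CpGs within 100 bp, A or T against C or G on both sides, intergenic against genic, and, among CpGs eligible in both families, CpGs lost against not lost in the other family. Each panel starts at 0 and has its own scale. The first class was higher in all lines but MEF-1 line 4 in the third panel and MEF-1 line 5 in the fourth.

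CpGs that lost methylation in one family were often not fully methylated in the other. At MEF-1 members, the MEF-2 parental line had a median level of 75.0%, against 95.5% over all CpGs eligible in MEF-1. It was at 90% or more at 932 of them (25.99%, against 68.7% of eligible CpGs), at 60 to 90% at 1483 (41.4% against 22.0%), at 40 to 60% at 663 (18.5% against 6.04%), at 10 to 40% at 420 (11.7% against 2.74%) and under 10% at 88 (2.45% against 0.490%). At MEF-2 members, the MEF-1 parental line had a median level of 91.7%, against 97.4% over eligible CpGs, and was at 90% or more at 1903 (54.7% against 80.6%), at 60 to 90% at 929 (26.7% against 12.7%), at 40 to 60% at 418 (12.02% against 4.82%), at 10 to 40% at 166 (4.77% against 1.54%) and under 10% at 61 (1.75% against 0.348%). The parental line of the other family took no part in the choice, but with 1 library per parental line the difference has no replicate and was not tested.

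**Figure D4:**
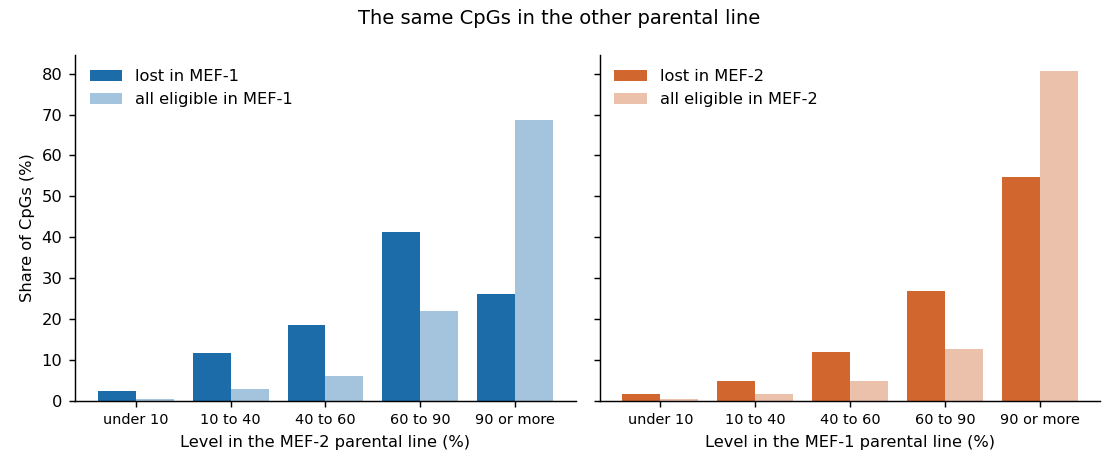
Share of CpGs in 5 classes of the level in the other family's parental line, for CpGs lost in a family (dark bars) and for all eligible CpGs of that family (pale bars). The highest class holds 25.99% of MEF-1 members against 68.7% of eligible CpGs, and 54.7% against 80.6% in MEF-2.

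Clonal lines of the other family gave the same picture. At MEF-1 members the mean level of the 7 MEF-2 lines was 67.04% ± 1.38 (SD, n = 7, range 64.0 to 67.9), against 87.8% ± 0.456 over eligible CpGs. A MEF-2 line was under 40% at 19.5% ± 1.56 of MEF-1 members and at 4.50% ± 0.371 of eligible CpGs. At MEF-2 members the 7 MEF-1 lines had a mean level of 80.6% ± 0.925 (range 79.2 to 81.7) against 91.7% ± 0.213, and were under 40% at 8.68% ± 0.611 against 2.48% ± 0.122. The ranges of members and eligible CpGs did not overlap in either family. The 7 lines come from 1 parental culture, however, so their SD and range do not replicate this difference. The parental lines had similar mean levels, 69.2% at MEF-1 members against 87.8% in MEF-2, and 81.1% at MEF-2 members against 91.5% in MEF-1. All 7 lines of the other family were at 90% or more at 355 MEF-1 members (9.90%, against 50.2% of eligible CpGs) and at 1083 MEF-2 members (31.1%, against 67.5%).

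Each clonal line was then compared with its own parental library at every CpG of the table (Fisher's exact test on methylated and unmethylated reads, adjusted over all CpGs of a line), which asks whether a CpG lost in one family also fell in the other. A CpG was called lower where the adjusted p was under 0.05 in at least 1 line. In MEF-2 lines, 1166 of the 3586 MEF-1 members (32.5%) were called lower, beside 13.2% of all CpGs eligible in MEF-1 and 12.5% of all CpGs of the table. In MEF-1 lines, 495 of the 3477 MEF-2 members (14.2%) were called lower, beside 5.61% of all CpGs eligible in MEF-2 and 7.64% of all CpGs. With the clonal libraries thinned to 10 reads per CpG, 5.63% of MEF-1 members and 3.05% of MEF-2 members were called, beside 1.35% and 0.954% of all CpGs. A called member was usually called in a single line (median 1 line in both families).

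The same held for CpGs that were eligible in both families. In MEF-2 lines 199 of the 871 MEF-1 members of this kind (22.8%) were called lower beside 7.73% of the 213605 CpGs eligible in both. In MEF-1 lines 242 of 1739 MEF-2 members (13.9%) were called lower beside 4.16%. MEF-2 lines had a mean level of 92.3% ± 0.595 (SD, n = 7) at those 871 CpGs and 96.3% ± 0.137 over the CpGs eligible in both, and MEF-1 lines had 94.8% ± 1.15 and 97.6% ± 0.285 at the 1739.

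Loss rates were set against the other family in the same way. Among CpGs eligible in both families, MEF-2 lines lost 8.86 ± 3.30 per 1000 at MEF-1 members and 1.25 ± 0.135 per 1000 elsewhere (mean ± SD, n = 7), and the gap of 7.61 (lowest 4.54, median 5.81, highest 13.5) was above 0 in 7 of 7 lines (exact sign-flip test, two-sided, p = 0.0156, adjusted p = 0.0208). MEF-1 lines lost 4.19 ± 3.97 per 1000 at MEF-2 members and 0.606 ± 0.480 elsewhere, a gap of 3.58 (lowest -0.0708, median 1.99, highest 8.64) that was above 0 in 6 of 7 lines (exact sign-flip test, p = 0.0312, adjusted p = 0.0312). Both calls rested on few CpGs, 51 losing calls at 1739 members in MEF-1 lines and 54 at 871 in MEF-2 lines. These calls fall on the same 49 CpGs, members of both families, so the gaps are not separate evidence. Membership in the other family was set by the same rule. The p-values thus draw on levels that chose the CpGs of both families, and no conclusion is drawn from them. Without any 1 of lines 1, 2, 3, 4, 6 or 7 the MEF-1 gap gave p = 0.0625 (exact sign-flip test, gaps of 2.74 to 4.10). That is again the smallest p that 6 lines allow when 1 gap is below 0. The MEF-1 call was lost with 20 or more reads in the clonal line (gap 3.36, exact sign-flip test, p = 0.125), with clonal libraries thinned to 10 reads (3.04, p = 0.0625, exact sign-flip test) and among CpG-poor sites alone (4.21, p = 0.0625, exact sign-flip test). With losses limited to levels under 20% neither gap passed (1.73 in MEF-1, exact sign-flip test, p = 0.25, and 5.55 in MEF-2, p = 0.50). At a parental level of 95% or more, the gaps were 3.71 in MEF-1 and 5.80 in MEF-2 and neither passed (exact sign-flip test, p = 0.125 in both). The pooled parental level was lower at these members, 95.2% against 96.9% in MEF-2 and 96.2% against 97.6% in MEF-1.

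The gaps of the families were compared with each other by an exact permutation test of 7 against 7 lines. None of the 4 differences in loss rate passed after adjustment. As log2 ratios of the 2 loss rates, which do not scale with the overall rate of a line, the flank difference was 0.51 (exact permutation test, unadjusted p = 0.0152) and the genic difference -0.29 (exact permutation test, unadjusted p = 0.00583), so that these 2 comparisons depend on the scale. The density gap was 0.148 per 1000 wider in MEF-1 than in MEF-2 (exact permutation test, two-sided, p = 0.656, adjusted p = 0.656 over 4 tests), and the flank gap was 0.684 wider (p = 0.112, adjusted p = 0.157, exact permutation test). The genic gap was lower in MEF-1 (difference -0.417 per 1000, exact permutation test, p = 0.118, adjusted p = 0.157). The gap at the other family's members was lower as well (difference -4.03 per 1000, exact permutation test, p = 0.0443, adjusted p = 0.157). That last difference sets the same 49 CpGs against classes of unlike size, 1739 CpGs for MEF-1 lines and 871 for MEF-2 lines. It depends on these sizes, and no conclusion is drawn from it. Lines 1, 4 and 5 of MEF-1 were then left out, a choice that rests on their low loss rates and so raises the MEF-1 gaps by construction. Without them the density gap was 0.808 and the flank gap 1.52 per 1000 wider in MEF-1, and the genic difference turned to 0.0398. Their p-values are not given, since the omitted lines were chosen by their outcome.

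The CpGs that lost methylation in both families numbered 49, which is 1.37% of MEF-1 and 1.41% of MEF-2 members. They are the CpGs counted above in the loss-rate gaps at the other family's members. Among CpGs eligible in both families, 5.63% of MEF-1 members were also MEF-2 members, beside 0.814% of all 213605 such CpGs, and 2.82% of MEF-2 members were also MEF-1 members, beside 0.408%. Of them, 43 were under 40% in 2 of the 14 clonal lines, 5 in 3 lines and 1 in 4 lines. The CpG with 4 lines was intergenic (chr2, position 172635006) and had parental levels of 92.3% and 91.9%. It was at 34.8% in MEF-1 line 6 and at 37.5%, 10.53% and 31.0% in MEF-2 lines 1, 4 and 6.

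The other CpGs of this kind differed in depth of loss. One in an exon of a non-coding transcript of Ahsg, which encodes the liver plasma protein fetuin-A (chr16, position 22892519), was at 97.5% and 97.2% in the parental lines. It was listed at 0 of 31 reads in MEF-1 line 2, which allows a level of up to 9.68% (3 counts of the total, the limit used here for a count of 0; counting error only), and at 16% in line 6, and MEF-2 line 1 was at 37.5%. An antisense transcript, Gm30505, overlaps it. An intergenic CpG on chromosome 10 (position 9053769) was at 93.9% and 95.8% in the parental lines, at 33.3% in MEF-1 line 7 and at 37.9% and 34.5% in MEF-2 lines 5 and 7. A CpG inside the long non-coding RNA gene 4930524C18Rik (chr14, position 114833338) was at 30.4% and 27.5% in MEF-1 lines 2 and 7 and at 37.7% in MEF-2 line 6. The last (chr4, position 118987044) lay in the processed pseudogene Gm12864, whose reads may be shared with other copies, and was at 31.4% in MEF-1 line 6 and at 38.5% and 26.1% in MEF-2 lines 3 and 4.

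Coverage of the CpGs under 40% in the most lines ran from 10 to 26 clonal reads at the Hspb8 CpG to 30 to 63 at the intergenic CpG on chromosome 2. The MEF-1 CpG with 5 lines lay in an intron of Hspb8, a small heat shock protein (chr5, position 116421630). It was at 90% of 20 parental reads and at 36.8%, 40%, 13.6%, 14.3%, 68.8%, 34.6% and 0% in lines 1 to 7, where 0 of 20 reads in line 7 allow a level of up to 15.0% by the limit of 3 counts. The MEF-2 lines were at 85.7% or more there. The MEF-2 CpG with 6 lines lay in an intron of Dbx2, a homeobox gene of neural progenitors (chr15, position 95641394). It was at 92.6% of 27 parental reads and at 28.6%, 0%, 37.5%, 21.1%, 85.7%, 26.3% and 20.8% in lines 1 to 7, so only line 5 kept it. Of its 17 reads in line 2 none was methylated, which allows up to 17.6% by the same limit. The CpG directly before it in the Dbx2 window was a member too.

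A Sox13 intron CpG (chr1, position 133422576) was low in the 4 MEF-1 lines that had many losses, on 17 to 38 reads in the clonal lines. Sox13 encodes an SRY-related transcription factor. The CpG was at 100% in lines 1, 4 and 5 and at 31.6%, 39.5%, 37.9% and 35.3% in lines 2, 3, 6 and 7, with 95.2% in the parent and 93.9% or more in all MEF-2 clonal lines. A CpG in Cyct, the testis cytochrome c gene (chr2, position 76360202), was at 31.0%, 25%, 10.7% and 11.1% in lines 2, 3, 6 and 7 and at 69.7 to 83.3% in lines 1, 4 and 5. The Sox13 and Cyct CpGs were named because 4 lines were under 40%. Most MEF-1 losing calls lie in lines 2, 3, 6 and 7, so this match with the number of losses is not separate evidence. A CpG in an exon of Ccdc9 and the promoter of Inafm1 (chr7, position 16274308) was at 34.8 to 65.0% in all MEF-1 lines from a parental level of 92.9%.

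Among the MEF-2 CpGs lost in 4 lines, that in an intron of Sptbn4, which encodes a spectrin of axons (chr7, position 27366320), was at 27.8 to 39.5% in lines 1, 2, 4 and 7 and at 58.3 to 88.4% in the others. In MEF-1 it was at 80% in the parental line and at 36.7 to 77.8% in the clonal lines. The intergenic CpG on chromosome 11 (position 88269167) was at 5.56% in line 1 and 26.7 to 38.9% in lines 2, 3 and 4, and the intergenic one on chromosome 2 (position 168614277) was at 20.5 to 35.3% in lines 2, 3, 5 and 7.

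Losses were spread thinly over genes. Of 13117 protein-coding genes with an eligible CpG in MEF-1, 1776 had a member in a transcript or promoter, 1473 of them a single one and 72 had 3 or more. In MEF-2 these numbers were 12720, 1531, 1227 and 93. Genes with a member in both families numbered 445, which is 25.1% of the MEF-1 and 29.1% of the MEF-2 genes. For comparison, 12.04% of all genes with an eligible CpG in MEF-2 had a member there, and 13.5% of those in MEF-1. Genes with more eligible CpGs have more chances to hold a member, in either family, and the overlap was not tested. Members in any gene numbered 2081 in MEF-1 (9.76 per 1000 genic eligible CpGs) and 1944 in MEF-2 (10.3 per 1000).

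Gm20388 and Fgfr2 had the most members in both families, and both have long annotations. Gm20388 held 18 members in MEF-1 and 19 in MEF-2, but its annotation spans 4435 kb of chromosome 8 with many other genes and 2381 and 2116 eligible CpGs, so its shares were 7.56 and 8.98 per 1000. Fgfr2, a fibroblast growth factor receptor whose annotation spans 2961 kb, held 7 and 9 members (10.0 and 14.8 per 1000). This span overlaps other genes too, and neighbouring MEF-1 members lay up to 1424378 bp apart.

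The other leading genes had more members per eligible CpG than Gm20388 and Fgfr2. In MEF-1, Dnah10, a dynein heavy chain of the axoneme, had 5 members among 70 eligible CpGs, 3 in line 6 and 2 in line 7. Asic2, an acid-sensing ion channel, had 4 of 44, Bcar3, an adaptor of integrin signalling, 4 of 123, Btbd11 also 4 (39.6 per 1000) and Emid1 4 of 26. Gpr12 had 4 of 8, of which 3 form its run. In MEF-2, Auts2, a gene of neural development, had 8 of 106, with 5 in line 3, 3 in line 5 and 1 in line 7 (a CpG can be lost in more than 1 line). Pced1b had 8 of 124, the sialyltransferase gene St6galnac3 8 of 65 with at least 1 in each of the 7 lines, and Dnah8, another dynein heavy chain, 7 of 88. Plekha6 had 7 of 48 with 4 in line 6, and Tshz2, a zinc finger gene, 7 of 63. In the other family the same genes had 0 to 4 members, with 2 in MEF-2 for Dnah10 and 2 in MEF-1 for Auts2. Genes were ranked by their number of members, which favours genes with many measured CpGs.

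Promoters of 269 genes in MEF-1 and 241 in MEF-2 held a member, but only 6 and 16 genes had 2 or more, counted over the promoters of all their transcripts. Slc38a3, which encodes a glutamine transporter, was the only gene with 4, out of 16 eligible promoter CpGs in MEF-2, spread over its alternative transcript starts. Its CpG at chr9 position 107665698 was at 2.41% in line 7 (2 of 83 reads, 95% Wilson interval 0.663 to 8.37) and at 38.6% in line 3, while the other lines were at 89 to 94.7% and the parent at 93.8%. The CpG at 107669917 was at 3.85% in line 7 (1 of 26 reads, 0.682 to 18.9) and at 96.1 to 100% in the other 6 lines. The CpG at 107669785, in the same window, was at 14.3% in line 2 alone (4 of 28 reads, 5.70 to 31.5), and that at 107665864 was at 31.6% in line 5. The CpGs near 107665698 and those near 107669917 are too far apart for the promoter of 1 transcript, and the losses fell in lines 2, 3, 5 and 7. The lowest level of each pair was in line 7. The pair near 107665698 also lay in an intron of Slc38a3, and the pair near 107669917 lay in a promoter only.

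In 4 of the other 7 leading genes the promoter losses fell in a single line. Of these 7 genes, only F2 had its members in a promoter and outside any transcript. The members of Eif4a2 and Art3 also lay in a coding exon. Those of Bcar3, Coq8a, Aebp2 and Acp2 also lay in an intron. Which transcript start was in use was not tested. F2, the prothrombin gene, had its members at 20.5% and 30.2% in MEF-1 line 6, where the next lowest lines were at 91.8% and 60%. Coq8a, a gene of coenzyme Q synthesis, had members at 30.3% and 28.6% in MEF-1 line 6, at positions 180193958 and 180196373 of chromosome 1, too far apart for the promoter of 1 transcript. Eif4a2, a translation initiation factor gene, had members at 32.7% and 39.1% in MEF-1 line 7, and Art3, of the ADP-ribosyltransferase family, at 36.4% and 23.9% in MEF-2 line 2. In Bcar3 the 2 CpGs, both without an unmethylated read in the parent, were lost in different lines, at 28.6% in MEF-1 line 7 and 34.6% in line 6. The first of them, at chr3 position 122510295, met the rule in MEF-2 as well, with 90.6% in the parent and 28.9% in line 6. Aebp2, which encodes a partner of Polycomb repressive complex 2, had its losses in MEF-2 lines 6 and 2. The Acp2 promoter, inside an intron of the nuclear receptor gene Nr1h3, had 1 CpG at 34.9% and 38.1% in MEF-2 lines 2 and 7 and another at 37.9% in line 4.

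**Figure D5:**
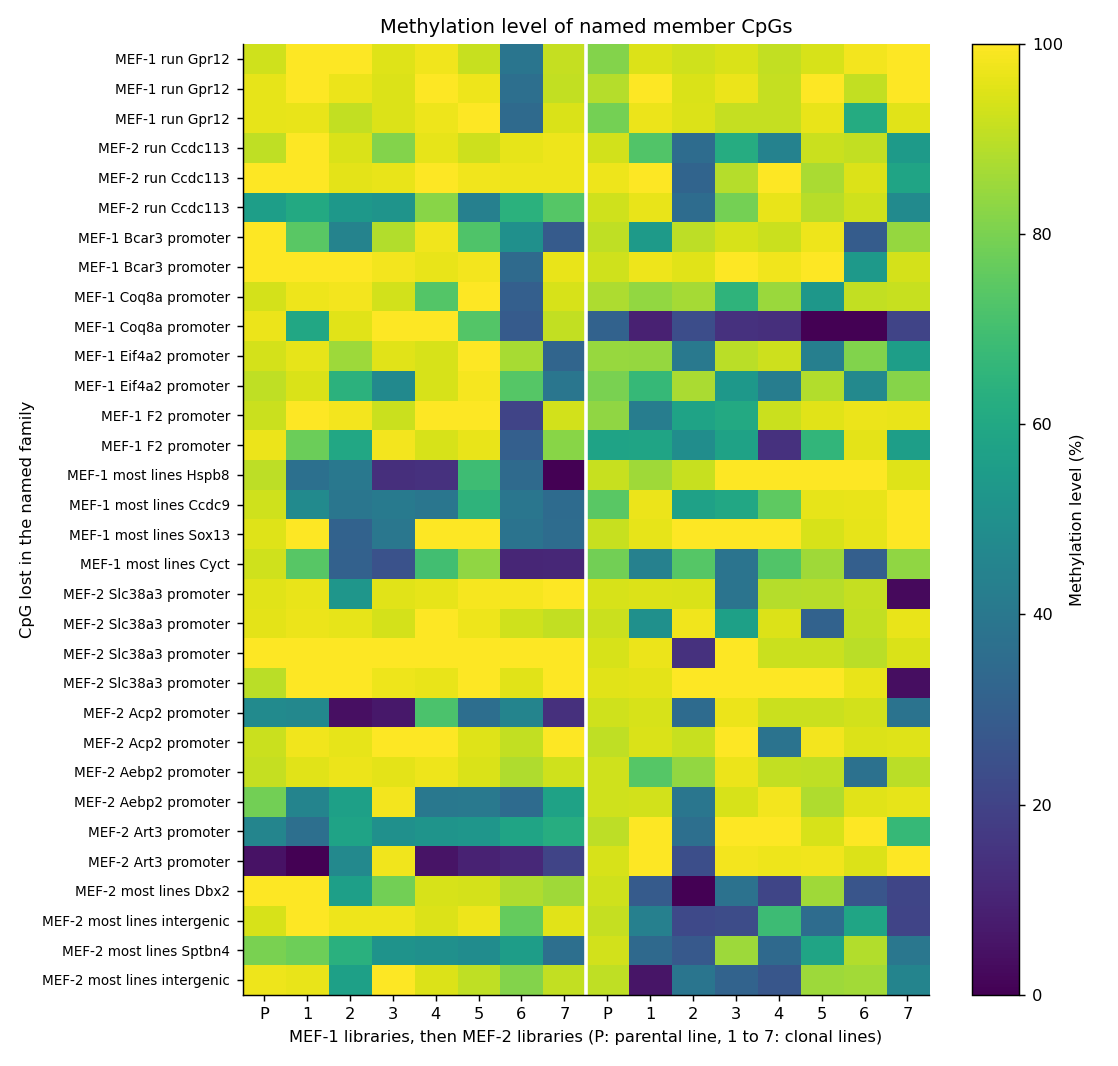
Methylation level (colour, 0 to 100%) of member CpGs named in the text, in the runs, the leading promoters and the CpGs lost in most lines, for the parental line (P) and clonal lines 1 to 7 of MEF-1 (left of the white bar) and MEF-2 (right). Each CpG is high in the parental line of the family named beside it. The CpGs of the Gpr12 run are low in 1 line (34.5 to 39.0% in MEF-1 line 6), whereas the Dbx2 CpG is low in 6 of the 7 MEF-2 lines.

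Gene lists for functions and cell types held few members, and none is tested here. In MEF-1 the 12 lists had 0 to 27.6 members per 1000 eligible CpGs and in MEF-2 0 to 33.7, beside 9.76 and 10.3 over all genic CpGs, from at most 6 members each. The lists of patterning transcription factors (6 members of 1429 eligible CpGs in MEF-1, 6 of 1094 in MEF-2) and of senescence and immortalisation genes (1 of 305, Rb1, and 1 of 268, E2f3) were below these shares. Blood cell markers were above, with 5 of 190 in MEF-1 (Gata2 and Spi1 2 each, Ikzf1 1) and 6 of 178 in MEF-2 (Ikzf1 3, Fli1 2, Cd79a 1). Muscle genes (5 of 234 and 5 of 214) were above as well. Their members lay mostly in structural genes, led by Ttn with 3 in MEF-1 and by Myh7 and Ttn with 2 each in MEF-2. Pluripotency genes were also above these shares (4 of 145, Zfp42 3 and Dppa5a 1, and 3 of 93, Dppa4, Prdm14 and Zfp42 1 each).

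Endothelial markers had 5 of 331 (Erg and Vwf 2 each, Flt1 1) and 4 of 287 (Kdr 2, Egfl7 and Pecam1 1 each). Imprinted genes had 6 of 782 (among them Cdh15, Gab1 and Inpp5f) and 5 of 642 (Trappc9 3, Kcnq1 and Rasgrf1 1 each). Germline genes had 2 of 371 (Dpep3 and Mael) and 6 of 354 (led by Sycp1 with 2, Piwil2 and Stra8), and epithelial markers 1 of 358 (Cldn4) and 3 of 278 (Gata4, Grhl2 and Krt8). Neural markers had 0 of 103 and 3 of 108 (Rbfox3 2, Nkx6-1 1), and fibroblast genes 2 of 271 (Col5a1 and Loxl1) and 1 of 248 (Vim). Of the DNA methylation machinery, Dnmt3b, Mbd4 and Tet2 had 1 member each of 263 in MEF-1, at 36.8%, 3.85% and 30.8% in the losing line, and none of 248 in MEF-2.

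Among the patterning genes, Sall4, a zinc finger factor of early embryos, had 4 of the MEF-2 members, at 9.09 to 38.7% in lines 4, 6 and 7, with 2 in its promoter. The only eligible CpG of Hoxb4 was under 40% in MEF-2 lines 3, 4, 5 and 7, at 10.0 to 38.5%. In MEF-1, Hoxa3 had 1 member of 138 eligible CpGs, at 28.6% in line 2, and Dlx6 1 of 27, at 35.7% in line 7.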

How the data were processed

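Methylation was measured by tcBS-seq in 16 libraries, 1 parental and 7 clonal per family. Per the submitters' processing notes and the study's methods, the authors trimmed reads with Trim Galore 0.6.0, aligned them to mm10 with Bismark, required a mapping quality of 10 or more, combined both strands and worked in R 3.6.1. Removal of PCR duplicates is not mentioned there. The deposited table gives, per CpG and library, counts of methylated and unmethylated reads for the 1203687 CpGs with 10 or more reads in all 16 libraries, and these counts were used. Its coverage and percentage columns were not used. Counts equalled those of the deposited library tables at all CpGs.

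Levels, loss rates and tests were computed in Python 3.11.15 with numpy 2.4.6, scipy 1.17.1, pandas 2.3.3 and numba 0.67.0, and figures with matplotlib 3.10.9. Genes came from GENCODE M21, with 1000 bp before a transcript start as its promoter. CpG density, flanking bases and sequences came from GRCm38. Gaps in loss rate between classes were tested over the 7 lines by an exact sign-flip test, and differences between families by an exact permutation test, two-sided and adjusted by Benjamini and Hochberg. Such p-values measure the spread among separately sorted lines of 1 parental culture. Lines of a family share that culture and its parental library and may share losses, so p can be too small. Counts of a clonal and its parental library were set against each other with Fisher's exact test, which compares libraries and covers counting error only. The code was tested on simulated data.

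Members and gene lists were chosen with earlier results of these data known. Named were, per family, up to 8 runs (1 existed), the 8 genes and 4 promoters with the most members, the 4 CpGs under 40% in the most lines and up to 3 genes of each list, and 5 CpGs lost in both families. Ties were taken alphabetically for genes. The alternatives were other level, read and coverage limits, thinning, fewer chromosomes, a log2 ratio of loss rates and leaving out lines.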

Additional observations from a re-analysis of the deposited data

Results flagged for a closer look

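Dixon's criterion set the highest or lowest line against the others in 48 groups of 7 clonal lines. Of these groups, 16 were of summaries and 32 of the named CpGs. With normally distributed values, chance meets the criterion in about 1 in 20 groups. It was met in 9 groups, 7 of them single CpGs. Levels of single CpGs are bounded at the top, and both flagged summaries come from MEF-2 line 3. The 9 groups can therefore not be set against that rate. The mean level at MEF-1 members was 64.0% in MEF-2 line 3 and 66.8 to 67.9% in the other MEF-2 lines. The share of MEF-1 members under 40% was 22.9% in that line and 18.2 to 19.4% in the others. That line also had the lowest level over the whole table, 43.0% of all calls against 43.9 to 44.6% in the other MEF-2 clonal lines, and the part of this in both values was not tested.

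Single CpGs chosen in one family were examined in the lines of the other. Of the 32, the Bcar3 CpG at 122510295 met the rule in both families, and it is not among those below. The Gpr12 CpG at position 146583291 was at 61.5% in MEF-2 line 6 (others 91.2 to 96.9%) and the Bcar3 CpG at 122510404 at 54.0% in the same line (others 93.7 to 100%). The Ccdc113 CpG at 95548391 was at 81.2% in MEF-1 line 3 (others 92.3 to 100%), and the Slc38a3 CpG at 107665698 at 52.4% in MEF-1 line 2 (others 95.6 to 100%). The Aebp2 CpG at 140626470 was at 98.3% in MEF-1 line 3, above the others at 35.0 to 57.6%. The intergenic CpG at 168614277 was at 76.2% in MEF-1 line 6 (others 94.7 to 100%) and that at 88269167 at 56.7% in MEF-1 line 2 (others 81.4 to 100%).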

How the results depend on the processing

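Of 227 alternative values, 166 kept their direction and call or stayed close, 35 no longer passed an unadjusted p of 0.05, 5 newly passed, 20 moved and 1 turned. The 5 include the density and flank differences without MEF-1 lines 1, 4 and 5. Those are not read as results, since the omitted lines were chosen by their outcome. The 35 include MEF-1 genic and other-family gaps with 1 line left out, where 6 lines with 1 gap below 0 could not pass. The cause was not tested unless named. With losses under 20%, fewer CpGs were members (561 in MEF-1, 512 in MEF-2, 0% of them in runs) and gaps of 0.190 (density, MEF-1), 0.304 and 0.0168 (flank, MEF-1 and MEF-2), 1.73 and 5.55 (other family's members) did not pass, while the flank difference of 0.287 did (exact permutation test, p = 0.0466) and the other-family difference of -3.82 did not. At a parental level of 95% or more there were 1628 and 1307 members, 0% in runs, and the genic gap in MEF-1 (0.426), the other-family gaps (3.71 and 5.80) and their difference (-2.09) did not pass. With 20 or more clonal reads the other-family gap in MEF-1 (3.36, exact sign-flip test, p = 0.125) and the difference (-3.61, exact permutation test, p = 0.117) no longer passed. Neither did they with thinned libraries (3.04, p = 0.0625, and -2.17, p = 0.220, same exact tests), where runs held 0.136% and 0% of members, and 3.05% and 5.63% of members were called lower in the other family, where fewer reads enter the test. Among CpG-poor sites the other-family gap in MEF-1 (4.21, p = 0.0625) and the flank gap in MEF-2 (0.416, p = 0.0781) were lost (exact sign-flip tests). On chromosomes 3, 4, 6 and 9 there were 937 and 887 members, 0% in runs, and the other-family difference of -4.56 was lost (exact permutation test, p = 0.119). Runs of 2 or more CpGs held 1.59% and 2.85% of members. As log2 ratios of loss rates, the flank (0.51) and genic (-0.29) differences passed, and none was computed for the other family's members, where a rate was 0.

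Leaving out 1 line gave genic gaps of 0.593 to 0.811 and other-family gaps of 2.74 to 4.19 in MEF-1, and shares of members in runs of 0 to 0.110% in MEF-1 (0% without line 6) and 0 to 0.102% in MEF-2 (0% without line 2). Without MEF-1 lines 1, 4 and 5, an omission added after seeing the data for the gaps, the MEF-1 gaps were 1.66 (density), 2.09 (flank), 1.15 (genic) and 5.92 (other family), each at the smallest p that 4 lines allow (exact sign-flip test, p = 0.125). The differences were then 0.808, 1.52, 0.0398, which turned in sign, and -1.69. Same-numbered lines of the families did not deviate together (r of -0.00356 to 0.00762, 1 of 7 highest with its own number), so they share only a number. With the clone number as a replicate block the other-family difference of -4.03 gave p = 0.0625 (exact sign-flip test), and no other call changed.

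Depth limits single calls, since many losing calls have intervals that reach 50%. With 1 library per parental line, parental levels have no replicate error.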
